A study of Mus musculus with 4 samples.

Results

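The genes described here encode the CatSper calcium channel, other ion channels of sperm and a sperm exchanger. There were 10 such genes on the list: Catsper1, Catsper2, Catsper3 and Catsper4, which encode the pore-forming subunits, Catsperb, Catsperd and Catsperg1, which encode accessory subunits, Kcnu1, Hvcn1 and Slc9c1. They were found on the array through the platform's gene symbol, its aliases and the gene ID, and probe sets annotated to several genes were left out. Of the 10 genes, 7 had a probe set (10 probe sets in all), and 6 had one above the background level, out of 12241 named genes above it in the whole table. No single-gene probe set was matched to Catsper4, Catsperb or Slc9c1, which are not analysed here.

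RNA came from testes of male C57BL/6J mice killed at 8 weeks of age, and was hybridised to 4 Affymetrix arrays in 2 groups. Taf7l knockout testes gave 2 arrays, and wild type testes, which the design describes as coming from littermates, gave the other 2. Taf7l encodes a germ cell relative of the general transcription factor subunit Taf7. The labels name neither the mutant allele nor any promoter or Cre, and the second knockout array carries number 2 in its title and number 1 in its description, so whether it is a separate animal is not settled. The p-values therefore cover array-to-array spread alone, and that spread may be technical. A probe set signal is a summary of the brightness of its probes in linear units.

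CatSper is a voltage-gated and pH-sensitive calcium channel of the sperm tail, built from different pore-forming subunits and a set of accessory proteins, and in mice it is needed for the hyperactivated swimming that precedes fertilization. Kcnu1 encodes Slo3, the potassium channel that hyperpolarises mouse sperm during capacitation. Hvcn1 encodes a voltage-gated proton channel, and Slc9c1 a sodium-proton exchanger specific to sperm. The genes of the CatSper complex are transcribed in male germ cells, mainly during and after meiosis.

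Promoter windows are shown for Catsper3 and Catsperg1, both lower in the knockout as given further on, and for Catsper2 and Catsperd, whose differences were close to 0, a choice made after the values were seen. RefSeq windows (GRCm38.p6, 250 bases before to 50 after a start) were matched for 7 of the 10 genes, 9 windows in all, and none for Catsper1, Kcnu1 or Hvcn1. Each is printed from 5′ to 3′ on the strand of its gene. Capitals mark TGACG, the first part of the cAMP response element, on either strand (CGTCA on the opposite one), or TATAAA, the TATA letters.
Catsper3 (chr13:55784329-55784628, + strand): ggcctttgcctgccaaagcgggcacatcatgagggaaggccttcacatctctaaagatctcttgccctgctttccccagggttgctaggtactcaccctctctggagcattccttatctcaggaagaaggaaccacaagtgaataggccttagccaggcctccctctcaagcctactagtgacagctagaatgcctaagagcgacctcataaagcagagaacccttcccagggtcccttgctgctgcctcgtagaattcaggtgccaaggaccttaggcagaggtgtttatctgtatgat
Catsperg1 (chr7:29213984-29214283, - strand): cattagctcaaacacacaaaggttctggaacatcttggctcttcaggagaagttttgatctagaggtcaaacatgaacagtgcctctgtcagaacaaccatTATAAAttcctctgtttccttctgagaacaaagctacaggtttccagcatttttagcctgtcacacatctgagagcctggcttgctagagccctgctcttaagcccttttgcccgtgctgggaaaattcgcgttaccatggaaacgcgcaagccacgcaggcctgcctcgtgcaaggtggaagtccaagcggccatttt
Catsper2 (chr2:121413743-121414042, - strand): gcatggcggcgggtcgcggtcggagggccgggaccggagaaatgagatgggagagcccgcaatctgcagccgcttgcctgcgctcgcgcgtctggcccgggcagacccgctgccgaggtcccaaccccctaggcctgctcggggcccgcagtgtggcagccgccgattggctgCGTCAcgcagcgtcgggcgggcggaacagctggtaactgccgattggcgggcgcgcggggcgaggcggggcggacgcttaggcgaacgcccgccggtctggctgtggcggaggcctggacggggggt
Catsperd (chr17:56626797-56627096, + strand): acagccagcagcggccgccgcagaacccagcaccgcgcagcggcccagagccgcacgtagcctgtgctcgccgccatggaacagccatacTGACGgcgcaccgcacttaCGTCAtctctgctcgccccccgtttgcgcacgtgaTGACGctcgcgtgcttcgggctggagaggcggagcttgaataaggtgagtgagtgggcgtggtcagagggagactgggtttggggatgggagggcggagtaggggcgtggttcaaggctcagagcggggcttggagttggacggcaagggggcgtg

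None of the 9 windows held the whole element TGACGTCA, which 1.79% of all 32851 windows hold on either strand. TGACG lay in 2 of the 9, 1 for Catsper2 (first base 77 before the start) and 1 for Catsperd (160, 141 and 106 before it), against 20.8% of all windows. TATAAA lay in 1, for Catsperg1, with its first base 149 before the start, against 13.6% of all windows. The windows of Catsper2 and Catsperd held 74.7% and 66.7% G and C, those of Catsper3 and Catsperg1 52.3% and 48.3%, and the median window 52.7%. Catsperd and Catsperg1 each have a further window at another start, with 53% and 59.3% G and C and none of these letters. These matches describe the letters only, and no binding was measured.

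Most of the measured channel genes had a slightly weaker signal in the knockout. Kcnu1, Catsper1, Catsperg1 and Catsper3 were 1.22-fold to 1.40-fold lower in knockout testes, Catsperd was about level and Catsper2 was slightly higher. No probe set of these genes passed the limma test at an adjusted p under 0.05 (0 of 8, where 1.39% of all 22519 kept probe sets passed), while 5 of 8 had an unadjusted limma p under 0.05, against 24.7% of all. Kcnu1, Catsper1 and 1 Catsperg1 probe set, 3 of the 8, came under an adjusted p of 0.10, as did 11.7% of all. Over the 6 genes the median log2 difference was −0.30 at the brightest probe set, beside −0.05 over all kept probe sets. The kept channel probe sets, apart from a dim Catsper2 one, were above the 75th percentile of mean signal (318). In a limma fit of the 11260 probe sets this bright, 4177 had an unadjusted p under 0.05 and 3538 an adjusted p under 0.10. The median difference there was −0.09. Catsper3 (0.075) and the other Catsperg1 probe set (0.053) also came under 0.10 in that fit. With 2 arrays against 2, an exact permutation test of a single value cannot go below p = 0.333.

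**Figure D1:**
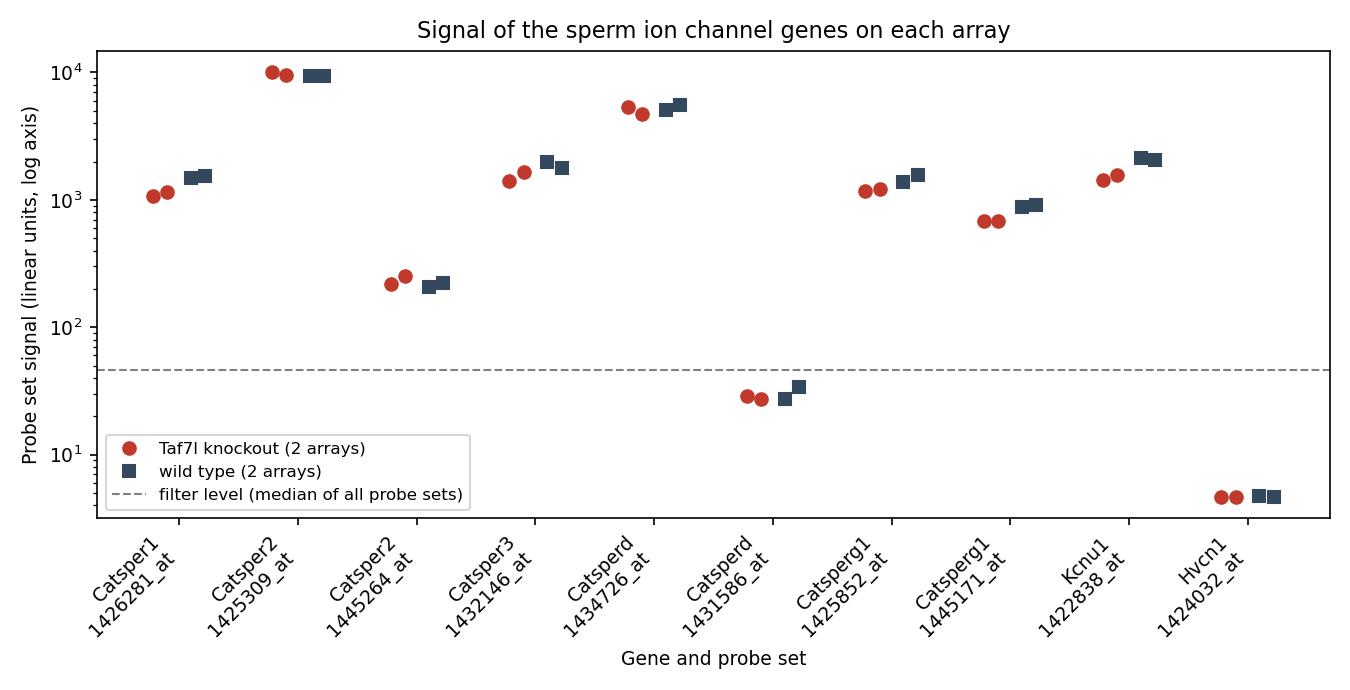
Signal of each probe set of the channel genes (linear units on a log axis) on the 2 Taf7l knockout arrays (circles, left) and the 2 wild type arrays (squares, right), with a dashed line at the background level of 45.8. Kcnu1, Catsper1, Catsper3 and both Catsperg1 probe sets lie lower on both knockout arrays, and Hvcn1 and the dim Catsperd probe set lie under the line.

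Kcnu1 showed the largest difference among these genes. Its signal (probe set 1422838_at) was 1431 and 1577 on the knockout arrays, against 2133 and 2060 on the wild type arrays. Both knockout arrays lay below both wild type arrays, and the gap between the groups was wider than the distance between arrays of either group. The means were 1504 ± 103 in knockout and 2096 ± 51.8 in wild type testes (SD, n = 2 each). The knockout level was thus 1.40-fold lower (log2 −0.48, SE 0.077, 95% interval −0.68 to −0.29, limma adjusted p = 0.054). Its partner gene Lrrc52, whose product is an auxiliary subunit of the Slo3 channel, was not lower at its kept probe set. There Lrrc52 had 690 and 800 on the knockout arrays, against 637 and 726 on the wild type arrays, and these overlap (log2 0.13, 95% interval −0.16 to 0.42, limma adjusted p = 0.55). A second Lrrc52 probe set, at background by its mean, also overlapped (19.8 and 44.8 on the knockout arrays, against 72.5 and 33.5 on the wild type arrays).

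Among the pore-forming subunits, Catsper1 and Catsper3 were lower and Catsper2 was not. Catsper1, whose loss in mice abolishes the channel's current, had a signal of 1081 and 1158 on the knockout arrays (probe set 1426281_at), against 1489 and 1539 on the wild type arrays. The groups did not overlap, and the fold was 1.35 (log2 −0.44, SE 0.073, 95% interval −0.62 to −0.25, limma adjusted p = 0.056). Catsper3 had 1403 and 1663 on the knockout arrays (1432146_at), against 1986 and 1778 on the wild type arrays. The groups did not overlap, but the arrays within each group lay farther apart than knockout replicate 2 and wild type replicate 2 did. The Catsper3 means were 1533 ± 185 in knockout and 1882 ± 147 in wild type testes (SD, n = 2 each; log2 −0.30, SE 0.11, 95% interval −0.58 to −0.02, limma adjusted p = 0.18).

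Catsper2 was measured by 2 probe sets of very different brightness. At the brighter (1425309_at) it had 10085 and 9584 on the knockout arrays, against 9390 and 9412 on the wild type arrays. The groups did not overlap, but the difference of 0.06 on the log2 scale was small (95% interval −0.07 to 0.20, limma adjusted p = 0.51). At the dimmer (1445264_at) it had 219 and 253 on the knockout arrays, against 208 and 223 on the wild type arrays, with overlap (log2 0.13, 95% interval −0.16 to 0.41, limma adjusted p = 0.55). The interval of the brighter probe set does not reach the differences estimated for Catsper1 or Kcnu1.

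Of the accessory subunits measured, Catsperg1, which encodes the gamma subunit, was lower at both of its probe sets. At 1445171_at it had 680 and 677 on the knockout arrays, against 881 and 905 on the wild type arrays. The knockout arrays were almost equal and both lay below both wild type arrays (1.32-fold lower, log2 −0.40, SE 0.071, 95% interval −0.58 to −0.22, limma adjusted p = 0.061). At 1425852_at it had 1164 and 1222 on the knockout arrays, against 1372 and 1555 on the wild type arrays, again with no overlap (1.22-fold lower, log2 −0.29, SE 0.088, 95% interval −0.52 to −0.07, limma adjusted p = 0.13). The related gene Catsperg2 had 11.7 and 10.7 on the knockout arrays, against 11.0 and 9.74 on the wild type arrays, all under background. Whether the Catsperg1 probes also match Catsperg2 was not tested.

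Catsperd, which encodes the delta subunit, had 5320 and 4749 on the knockout arrays (1434726_at), against 5077 and 5548 on the wild type arrays. The groups overlapped, and the difference was −0.08 on the log2 scale (95% interval −0.29 to 0.13, limma adjusted p = 0.62). Its sign turned under quantile normalization (0.04), so no direction is given for it. A second Catsperd probe set (1431586_at) had 28.7 and 27.3 on the knockout arrays, against 27.4 and 34.2 on the wild type arrays, and is at background.

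Hvcn1, the proton channel gene, was at background on all 4 arrays. Its signal was 4.65 and 4.67 on the knockout arrays, against 4.74 and 4.67 on the wild type arrays. Background here means a mean signal under 45.8, the median of the mean signal over the mouse probe sets, and signals that low get no test. Knockout replicate 2 and wild type replicate 2 held exactly the same Hvcn1 value, which happened at 2385 probe sets of the table for this pair of arrays and at 228 to 620 for the others. It was the only probe set of these genes with an equal value on 2 arrays.

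**Figure D2:**
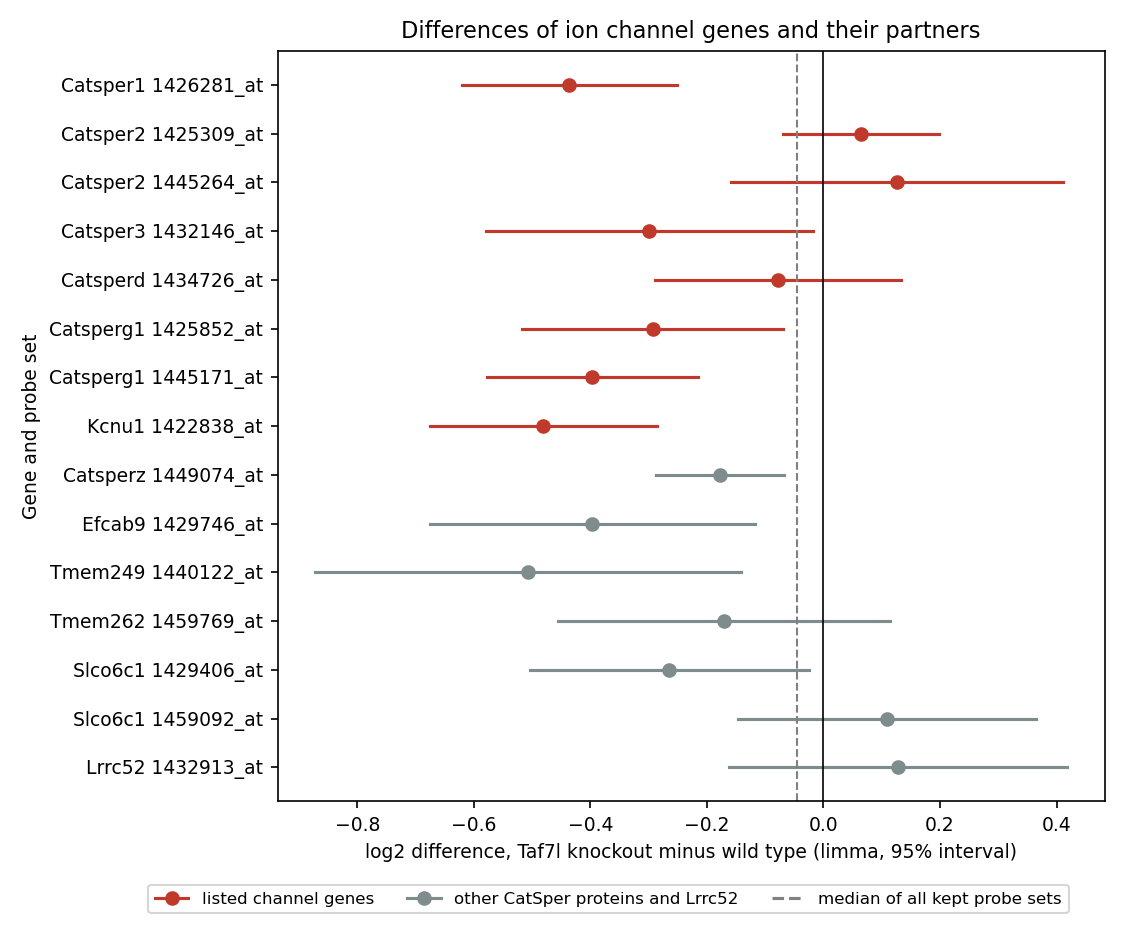
Difference of log2 signal, Taf7l knockout minus wild type, with limma's 95% interval, for the 8 kept probe sets of the channel genes (red) and for the other CatSper proteins and Lrrc52 (grey). The dashed line marks the median of all kept probe sets, −0.05. The intervals of Kcnu1, Catsper1 and both Catsperg1 probe sets lie wholly below it, as do those of Efcab9, Tmem249 and Catsperz.

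Of the 8 kept probe sets, 5 had both knockout arrays below both wild type arrays, 1 had both above, and 2 overlapped. Among all kept probe sets 36.3% had both knockout arrays below and 18.7% had both above. The calls depended on the filter, the choice of probe sets and the scaling. With probe sets kept only from the 75th percentile of mean signal upward, Kcnu1 (adjusted p = 0.0095), Catsper1 (0.012) and Catsperg1 at 1445171_at (0.016) passed limma's test, where 21.1% of all did. With 1 probe set per gene, Kcnu1 (0.036) and Catsper1 (0.039) passed, against 6.58% of all, and with each array centred on its median the same genes passed (0.046 and 0.049), against 2.87% of all.

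Kcnu1, Catsper1, Catsper3 and Catsperg1 at its brighter probe set were all lower on knockout replicate 1 than on knockout replicate 2. Set against its own wild type mean, Kcnu1 was at −0.55 and −0.41 on the log2 scale on the knockout arrays and Catsper3 at −0.42 and −0.18. Catsper2 and Catsperd were ordered the other way, at 0.10 and 0.03 and at 0.00 and −0.16. RNA quality can be read from the actin probe sets as 3′ over 5′ signal. This was 2.42 and 2.18 on the knockout arrays, against 2.09 and 1.999 on the wild type arrays, and for Gapdh it was 0.927 and 0.938, against 1.04 and 0.990. Their part in these differences was not tested.

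The difference between channel genes can be read within each array, where the scaling of the array cancels. The change of Catsper2 at its brighter probe set was taken off the change of each other gene, a comparison chosen after the values were seen. Since Catsper2 was the measured channel gene that was higher in the knockout, this lowers each other gene on the knockout arrays by construction, and no test is given. Relative to Catsper2, Kcnu1 was at −0.65 and −0.44 on the knockout arrays, against 0.03 and −0.03 on the wild type arrays, and Catsper1 at −0.59 and −0.41, against −0.02 and 0.02. For both, the groups lay farther apart than the arrays of either genotype did. Catsperg1 at its brighter probe set was at −0.43 and −0.29, against −0.09 and 0.09, and Catsper3 at −0.52 and −0.20, against 0.08 and −0.08. Catsperd was at −0.10 and −0.19, against −0.06 and 0.06. The mean differences, knockout minus wild type, were −0.55 for Kcnu1, −0.50 for Catsper1, −0.36 for both Catsper3 and Catsperg1 and −0.14 for Catsperd.

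**Figure D3:**
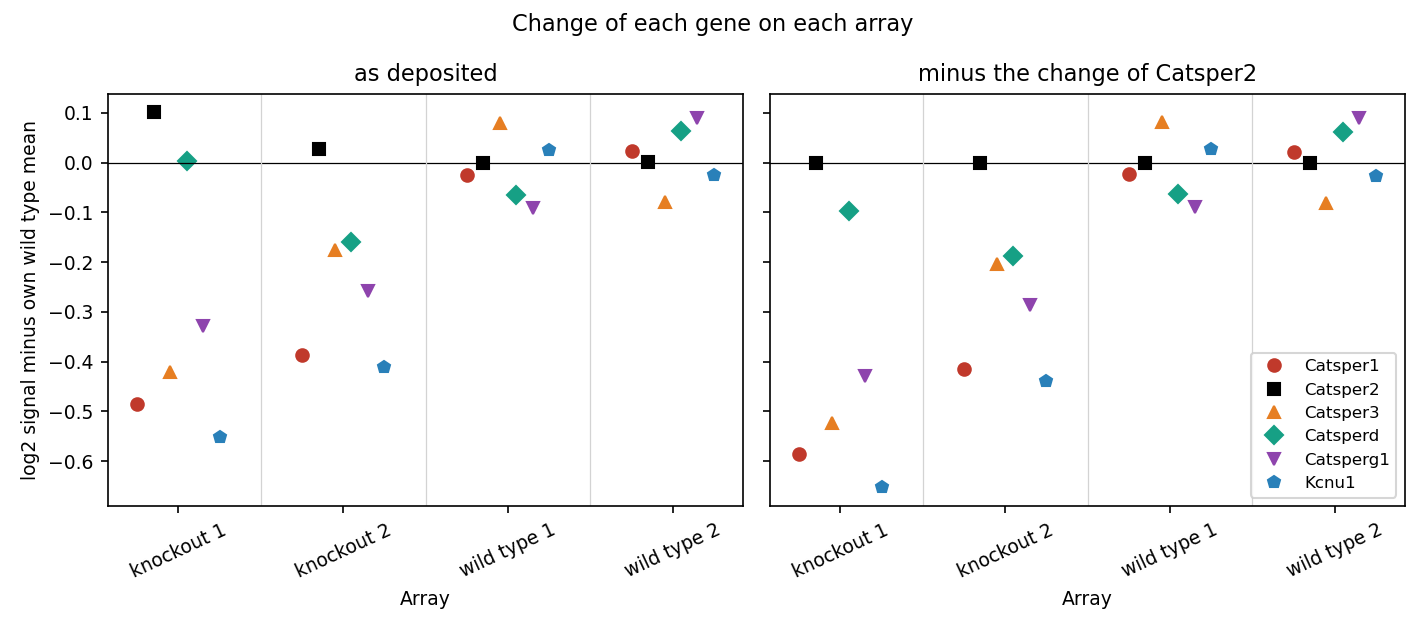
Change of each channel gene on each of the 4 arrays, as log2 signal minus the mean log2 signal of the gene on the wild type arrays, as deposited (left panel) and after the change of Catsper2 on the same array is taken off (right panel). Kcnu1 and Catsper1 lie at −0.39 or lower on both knockout arrays in both panels, and Catsper2 lies near 0.

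Transcripts for other proteins of the CatSper complex had lower signals as well, and none passed the test. Of 8 listed, 6 had a single-gene probe set and 5 one above background, and all 5 had a lower mean at it. The groups did not overlap for 4 of the 5, as for 36.3% of all kept probe sets in this direction, and 0 passed limma's adjusted p of 0.05, as 1.39% of all did. Efcab9, which encodes the calcium-binding partner of Catsperz, had 6550 and 7708 on the knockout arrays, against 10054 and 8699 on the wild type arrays (log2 −0.40, limma adjusted p = 0.11). Tmem249 had 649 and 772 on the knockout arrays, against 1123 and 901 on the wild type arrays (log2 −0.51, limma adjusted p = 0.11). Both genes were thus lower on both knockout arrays, by amounts as large as that of Kcnu1 or nearly so but with a wider spread. Slco6c1, a transporter found in the complex, had 5933 and 5534, against 7463 and 6347 (log2 −0.26, limma adjusted p = 0.17), while a dimmer probe set differed by 0.11 in the other direction. Tmem262 had 254 and 284, against 322 and 284 (log2 −0.17, limma adjusted p = 0.41). It overlapped only because knockout replicate 2 and wild type replicate 2 held exactly the same value, as they did for Hvcn1. Equal values on this pair of arrays thus occurred above background too.

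Catsperz had 20120 and 20019 on the knockout arrays, against 22572 and 22832 on the wild type arrays (log2 −0.18, limma adjusted p = 0.088). The platform names this probe set Catsperz, but RefSeq gives its accession to Kcnk4, the neighbouring potassium channel gene, so its gene is uncertain. No single-gene probe set was matched to Catspere1 or Catspere2.

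In the wider list of sperm ion transport and capacitation genes, 30 of 41 had a probe set above background. At the brightest one 23 were lower and 7 higher in the knockout, and the median difference was −0.15. The groups did not overlap for 20 of the lower and 3 of the higher genes, where 36.3% and 18.7% of all kept probe sets were so. By limma 0 of 30 passed an adjusted p of 0.05, against 1.39% of all, and 5 of 30 came under 0.10, against 11.7% of all, a share near that of the whole table. These 5 were Catsperz, Cabyr, Plcd4, Prkar2a and P2rx2. Cabyr, a calcium-binding protein of the fibrous sheath, had 10409 and 12016 on the knockout arrays, against 14781 and 13959 on the wild type arrays (log2 −0.36, limma adjusted p = 0.081), and was lower at its other 2 probe sets too. Plcd4, a phospholipase C gene, had 3042 and 3161, against 3782 and 3629 (log2 −0.26, limma adjusted p = 0.085).

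Prkar2a, a regulatory subunit gene of protein kinase A, had 152 and 154, against 207 and 191 at its brightest probe set (log2 −0.38, limma adjusted p = 0.094), while its other 3 kept probe sets overlapped. P2rx2, an ATP-gated cation channel gene, differed the other way, at 558 and 488 on the knockout arrays, against 383 and 396 on the wild type arrays (log2 0.42, limma adjusted p = 0.083). Adcy10, the bicarbonate-sensitive adenylyl cyclase gene, overlapped at 3962 and 3717, against 3797 and 3710 (log2 0.03, limma adjusted p = 0.80). So did Slc9b1, a sodium-proton exchanger gene, at its brightest probe set (8402 and 8288, against 8656 and 8375, log2 −0.03, limma adjusted p = 0.78).

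At dimmer probe sets Slc9b1 was at −0.24 (limma adjusted p = 0.095) and −0.21 (0.27), both with no overlap. At its remaining kept probe set it was at −0.04, where equal values on the replicate 2 arrays made the groups overlap. The sodium pump gene Atp1a4 of sperm had 7472 and 7201, against 7702 and 8056 (log2 −0.10, limma adjusted p = 0.33). The anion transporter gene Slc26a8 had 2889 and 2148, against 3213 and 3003 (log2 −0.32, limma adjusted p = 0.26), with the knockout arrays far apart. At a dimmer probe set Slc26a8 overlapped, at 291 and 307, against 303 and 313 (log2 −0.04, limma adjusted p = 0.80). Atp2b4, the calcium pump gene, was at background (17.9 and 17.7, against 17.7 and 17.5).

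Marker genes of spermatids were also mostly lower, and some by as much as the channel genes. Of 16 genes of round and elongating spermatids, 15 were lower in the knockout at their brightest probe set, and the median difference was −0.13. The groups did not overlap for 11 of these, against 36.3% of all kept probe sets. By limma 0 of 16 passed an adjusted p of 0.05 and 2 came under 0.10, against 1.39% and 11.7% of all. Their summed signal was 534626 and 524933 on the knockout arrays, against 581512 and 560527 on the wild type arrays, and none was at background. The transition protein gene Tnp1 differed by −0.17 at its brightest probe set and by −0.05, with overlap, at a dimmer one. The testis kinase gene Tssk2 differed by −0.16. The protamine gene Prm1 was at 0.06 at its brightest probe set and at 0.09 and −0.16 at the others. Single spermatid genes differed by more, among them the acrosin gene Acr at −0.51 (limma adjusted p = 0.067), Acrv1 at −0.30 (0.23) and Tssk1 at −0.26 (0.069), named after their values were seen. The Acr difference was as large as that of Kcnu1, and the Acrv1 difference about that of Catsper3. In whole testis, fewer cells of a type and less RNA per cell cannot be told apart.

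Pachytene spermatocyte markers had a median of −0.07 (6 of 8 lower). Their summed signals were 154711 and 153530 on the knockout arrays, against 164907 and 161100 on the wild type arrays. The brightest, Ldhc and Pgk2, were at −0.02 and −0.10, and Piwil1 and Adam2 at −0.07 and −0.06. Sycp1 (0.05) and Sycp3 (0.02) were slightly higher. The lowest were Ccna1 at −0.48 (limma adjusted p = 0.066) and Hspa2 at −0.35 (0.051), named after their values were seen. Leydig cell markers were higher in 4 of 4 measured, with no overlap, against 18.7% of all kept probe sets (median 0.34, summed signal 19892 and 20236, against 16079 and 15805), and 1 of 4 passed, against 1.39% of all, Cyp17a1 at 15226 and 15105, against 12131 and 11852 (limma adjusted p = 0.0496). Macrophage markers were higher in 5 of 5 (median 0.20, summed 2430 and 2758, against 2219 and 2305), and Cd68 and Cd14 were at background. Sertoli cell markers were higher in 5 of 7 (median 0.04, summed 46096 and 40704, against 37751 and 34724), with Amh at background. Most of each sum came from 1 gene, Clu, at 43413 and 37656, against 35026 and 32203. Spermatogonial markers were higher in 3 of 5 (median 0.07), with Gfra1 at background. Adipocyte markers were lower in 4 of 4 (median −0.47, summed 945 and 1653 on the knockout arrays, against 844 and 3968 on the wild type arrays). Of 2 measured epididymis markers, Defb15 was at 0.03 with overlap. Spink8 had 10.1 and 12.7 on the knockout arrays, against 17.3 and 150 on the wild type arrays. It was thus above background only through wild type replicate 2, and the list's median of −1.07 rests on that array. The epididymis markers summed to 116 and 120, against 114 and 263, and Lcn5, Lcn8 and Adam7 were at background. Both sums were highest on wild type replicate 2, and the adipocyte sum was also higher on knockout replicate 2 than on either replicate 1. Without knockout replicate 2 Kcnu1 was at −0.55, Catsper1 at −0.49, Catsper3 at −0.42, and Catsperg1 at −0.33 and −0.39. Without wild type replicate 2 Kcnu1 was at −0.51, Catsper1 at −0.41, Catsper3 at −0.38, and Catsperg1 at −0.20 and −0.38. The part of these shifts in the differences of the channel genes was not tested. The centring that follows moves all probe sets of an array by the same amount, so it cannot test this.

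**Figure D4:**
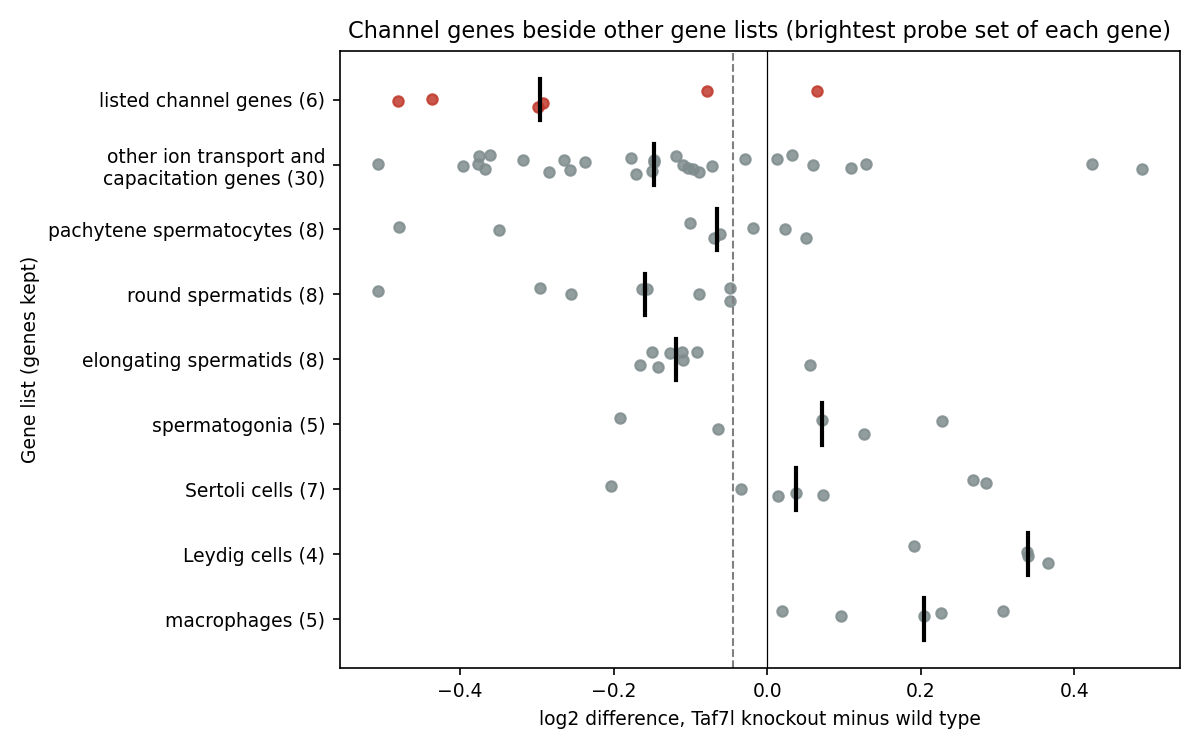
Difference of log2 signal, Taf7l knockout minus wild type, at the brightest probe set of each gene above background, for the channel genes (red), the other ion transport and capacitation genes and the marker lists of testis cell types (grey). Black bars are list medians, −0.30 for the channel genes, −0.16 for round and −0.12 for elongating spermatids, and the dashed line is the median of all kept probe sets, −0.05.

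When each array was centred on the mean log2 signal of these 16 spermatid genes, a setting added after the data were seen, the differences moved up by 0.15 and the median of all kept probe sets was 0.11 instead of −0.05. Kcnu1 was then at −0.33 (limma adjusted p = 0.067), Catsper1 at −0.29 (0.10), Catsperg1 at −0.25 and −0.14, and Catsper3 at −0.15. Catsper2 was at 0.21 and 0.28 and Catsperd at 0.07, and none of these passed. Under quantile normalization Kcnu1 was at −0.36, Catsper1 at −0.32 and Catsper2 at 0.17 at its brighter probe set. Kcnu1, Catsper1, Catsper3 and Catsperg1 were thus lower as deposited, under median centring, under quantile normalization and after this centring. The sizes depended on the scaling. For Catsper2 the direction is not settled, since its intervals as deposited ran from −0.07 to 0.20 and from −0.16 to 0.41. Quantile normalization and this centring moved Catsper2 up, and median centring left it at 0.05 and 0.12. Its staying higher under these scalings was therefore no test of its direction.

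**Figure D5:**
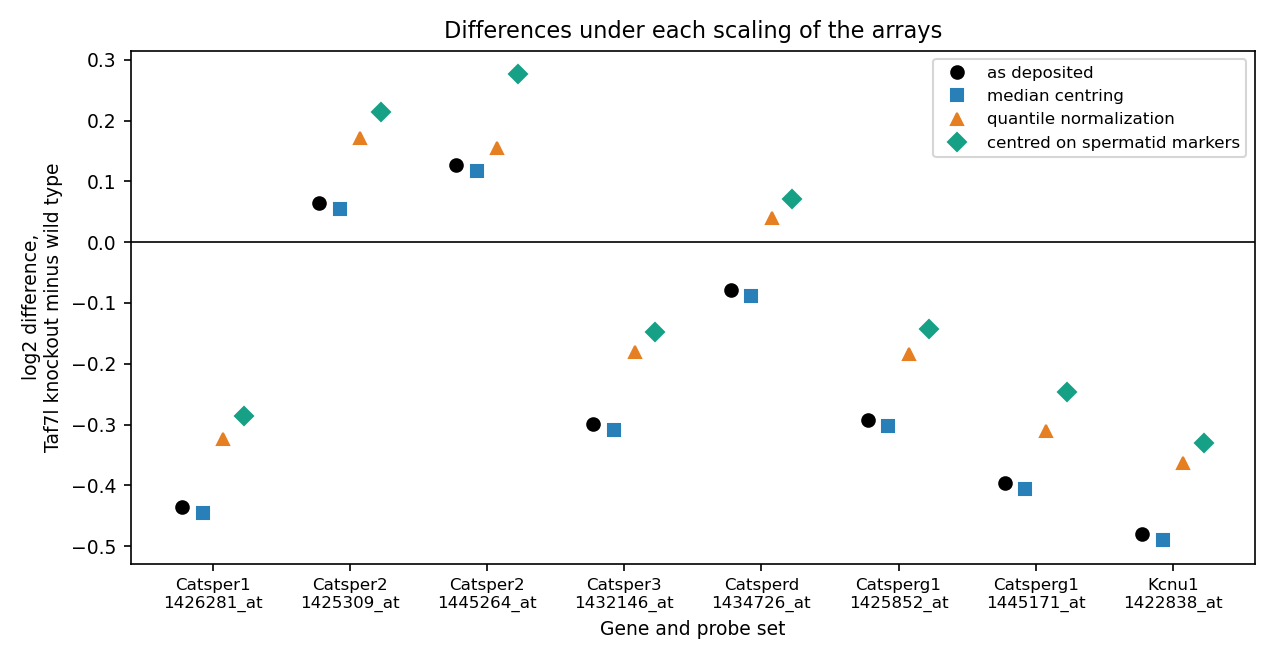
Difference of log2 signal, Taf7l knockout minus wild type, of each kept probe set of the channel genes under 4 scalings of the arrays. Catsper1, Catsper3, Catsperg1 and Kcnu1 lie below 0 and Catsper2 above 0 under all 4, and Catsperd lies on either side.

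The targeted gene, Taf7l, had a signal of 80.6 and 72.5 on the knockout arrays, against 829 and 818 on the wild type arrays (10.8-fold lower, limma adjusted p = 0.0033). The position of its probes relative to the mutation was not checked.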

How the data were processed

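The deposited table gives a linear intensity for each of 45101 probe sets on 4 arrays. Per the submitters' processing notes these signals were made with MAS5, with no scaling target stated. Control probe sets (64) were left out. The median mouse signal was 45.3 to 45.7 on the knockout arrays and 45.2 to 45.3 on the wild type arrays. Gene symbols came from the platform annotation and were updated by gene ID from RefSeq (34741 of 34945 matched); 932 had several symbols and 9160 none.

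Log2 signals (offset 0) of the 22519 probe sets with a mean at or above the median mean (45.8) were tested for a genotype difference in R 4.3.3 with limma 3.58.1 (lmFit and eBayes with a trend, genotype as the only term, two-sided), with Benjamini-Hochberg adjustment over all of them. The number of arrays limits the precision. Alternatives covered scaling, offset, filter, prior, threshold, 1 probe set per gene, the replicate number as a block and leaving out each array.

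The genes and lists were chosen with earlier results of these data known. All channel genes are named; in the wider list, named genes are other CatSper proteins, a set chosen by role, and the 5 under an adjusted p of 0.10, of which Cabyr, Plcd4, Prkar2a and P2rx2 were chosen after their values were seen. Of each marker list at most the 2 brightest are named, apart from markers at background, Acr, Acrv1, Tssk1, and the pachytene list, which is named in full. These additions were made after their values were seen. Protein sequences were not used here.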

Additional observations from a re-analysis of the deposited data

How the results depend on the processing

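Of 109 differences of the 8 channel probe sets recomputed under the alternatives, 99 kept their direction and their side of the threshold, 7 came to pass it and 3 turned, all of Catsperd: 0.039 under quantile normalization, 0.072 when centred on spermatid markers (added after the data were seen) and 0.0034 without Taf7l knockout replicate 2. The alternatives of filter, trend, prior, replicate block and 1 probe set per gene leave the difference itself unchanged, so no direction could turn there. Where no probe set of the whole table was called, as given below, no channel probe set could be. The count of 99 is therefore not a measure of stability. Without 1 array Catsperd ranged from −0.16 to 0.0034. Kcnu1 ranged from −0.55 to −0.33 (adjusted p from 0.0095 to 0.35) and Catsper1 from −0.49 to −0.29 (0.012 to 0.35). Channel probe sets called numbered 2 with median centring, 2 with 1 probe set per gene, 3 with the 75th percentile filter and 3 at an adjusted p under 0.10, and 0 under the rest. The genes' median of −0.30 was −0.18 under quantile normalization and −0.15 when centred on spermatid markers. Wider-list genes called numbered 7 with the 75th percentile filter (21.1% of all probe sets passed) and 5 at an adjusted p under 0.10 (11.7% of all). Over all probe sets, 312 calls became 148 under quantile normalization, 646 with median centring, 0 with no filter, 2375 with the 75th percentile filter, 36 with no trend, 541 with the replicate block, 806 with 1 probe set per gene, 842 when centred on spermatid markers, 2628 at an adjusted p under 0.10 and 0 without any 1 array. The share of calls that were higher in the knockout was 100 of 312 as deposited, 91 of 148 under quantile normalization, 147 of 646 with median centring and 634 of 842 when centred on spermatid markers. Without 1 array, 3084 to 5500 probe sets had an unadjusted p under 0.05 by limma, and 6192 with no filter. The cause was not tested; the filters and the use of 1 probe set per gene changed both the number of tests and the prior degrees of freedom. With 1 array left out, the lone array of a genotype is assumed to vary like the others. The replicate numbers share no stated litter or batch, and arrays of the same number deviated together with r = 0.03 across probe sets, so they were not read as pairs; with the replicate block no channel probe set was called. Signals under 45.8 are not read.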
